A study of Homo sapiens with 12 samples.

Results

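The immediate early and AP-1 genes examined in these neurons were FOS, FOSB, JUN, JUNB, JUND, EGR1, EGR3, NR4A1, ARC and NPAS4. They were chosen by name, as the rows of both deposited gene tables whose symbol equals one of these 10, and the rule uses no level. All 10 genes were found in both tables, among 16406 genes listed in induced motor neurons (iMNs) and 19016 genes listed in NGN2-induced glutamatergic neurons (i3Ns). The study asked which RNAs differ after knockdown of SMN1 and SMN2, which encode the protein deficient in spinal muscular atrophy, and sequenced total RNA depleted of ribosomal RNA from 12 libraries. The group iMN SCR held 3 libraries of iMNs with a scrambled shRNA, and iMN SMN-KD held 3 libraries of iMNs with an shRNA against SMN1/2. The group i3N SCR held 3 libraries of i3Ns with the scrambled shRNA, and i3N SMN-KD held 3 libraries of i3Ns with the shRNA against SMN1/2. Controls and knockdown cells thus both carried a lentiviral shRNA vector. The iMNs were made from an iPSC line with a Td-Tomato reporter under the promoter of HB9, a motor neuron transcription factor, and were sorted by FACS for that reporter. By the paper's account, sorted cells were plated and then given the shRNA lentivirus, and RNA was taken after 12 days of knockdown. The i3Ns were made from H1, an established human embryonic stem cell line, with inducible NGN2, a transcription factor that drives them to become excitatory neurons. Each cell type therefore stands for a single stem cell line, and the libraries of a group are not stated to come from separate differentiations.

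The measurement used here was each gene's mean normalized count, which the authors averaged over the 6 libraries of a cell type, SCR and SMN-KD together. It is a level and not a response to SMN-KD, and the authors' columns on that comparison were not used. Values of single libraries were not used here, so no spread between replicates accompanies any level and no test was run. A mean over equal groups bounds the mean of either group between 0 and a doubling of the value shown. For FOS in iMNs that upper bound was 12680 normalized counts, and for NPAS4 in i3Ns it was 68.0 normalized counts. Read depth per library is unknown for the same reason. In bulk RNA, fewer cells that express a gene and less RNA per cell cannot be told apart.

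Immediate early genes are transcribed within minutes of a stimulus such as synaptic activity, growth factor signaling or cell stress, from factors already present in the cell and without new protein synthesis. FOS and JUN proteins pair through leucine zippers to form AP-1, a dimeric transcription factor. FOS proteins need a JUN partner to bind DNA, while JUN proteins can also pair with each other. EGR1, EGR3, NR4A1 and NPAS4 are transcription factors of other families, and ARC is an effector at synapses that acts on glutamate receptor uptake. Calcium entry and the MAP kinase pathways drive these genes through SRF with its ELK and MRTF cofactors, CREB with its CRTC coactivators, and MEF2. In neurons they are widely used as a readout of recent activity, and dissociating cells is also known to switch on several of them.

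The labelled cell types were checked against markers, with percentiles giving the share of a table's genes at lower levels and folds between tables scaled as described further on. All 5 pan-neuronal markers were above the median gene in both tables, with TUBB3 at percentile 99.7 in iMNs and 99.8 in i3Ns. Of these 5, 2 were more than 2-fold higher in iMNs and 0 in i3Ns. The 2 were the synaptic genes SYN1, at 24262 normalized counts in iMNs and 7645 in i3Ns, and SNAP25, at 18426 and 4847. Of 6 glutamatergic markers, 5 were more than 2-fold higher in i3Ns, including the vesicular glutamate transporter SLC17A6, at a mean normalized count of 593 in iMNs and 11237 in i3Ns. Of 7 motor neuron markers, 1 was more than 2-fold higher in iMNs and 4 in i3Ns. The cholinergic gene SLC5A7 was the 1 higher in iMNs, at 8460 normalized counts against 2472 in i3Ns, and SLC18A3, at 3115 and 1865, and CHAT, at 533 and 527, were within 2-fold. The motor neuron transcription factors MNX1, ISL1, ISL2 and LHX3 were each more than 2-fold higher in i3Ns, against the labels. MNX1, the HB9 gene used for the sort, was listed at 430 normalized counts in iMNs and 2279 in i3Ns. Of genes picked after their values were seen, HOXA5 and HOXB8 were listed at 10544 and 11557 normalized counts in iMNs and at 3.36 and 1.85 in i3Ns, whereas OLIG2, a motor neuron progenitor gene, and POU4F1, a sensory neuron gene, were listed at 20.7 and 24.2 in iMNs and at 362 and 13128 in i3Ns. Of 5 progenitor and dividing cell markers, MKI67, TOP2A and NES were more than 2-fold higher in i3Ns, with MKI67 at 28.3 in iMNs and 522 in i3Ns and NES at 6043 and 29662. PAX6 was 2.46-fold higher in iMNs, at 234 and 102, and SOX2 was within 2-fold, at 53.9 and 38.9. The glial markers GFAP and AQP4 were listed in neither table, S100B was listed only in iMNs, at 29.8, and ALDH1L1 only in i3Ns, at 3.64. Of 3 mesenchymal markers, COL1A1 was at 1321 in iMNs and 4228 in i3Ns, while COL1A2, at 686 and 611, and LUM, at 31.3 and 54.1, were within 2-fold. The stem cell marker LIN28A was at 215 in iMNs and 4216 in i3Ns. POU5F1 and NANOG were found under their main gene identifiers only in i3Ns, at 13.9 and 7.73. The lowest level listed was 7.73 normalized counts in iMNs and 1.37 in i3Ns, so a gene as low as ALDH1L1 could be listed only in i3Ns. The part of these differences in the levels below was not tested.

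Compact genes made up most of the set. Of the 10 genes, 9 span under 10 kb from first to last base, against 18.3% of 14115 protein-coding genes listed in both tables. The median span was 4749 bases for the set and 35620 bases for those genes. The exception was NR4A1, annotated over 36676 bases. JUN, JUNB and JUND each have a single exon, a property of 2.74% of the protein-coding genes, and all 10 genes have fewer exons than the median gene, which has 9. NPAS4 had the most, with 8. Transcripts were of ordinary length, with a median of 3043.5 bases for the set and 3477 bases for the protein-coding genes. Span, exon number and the 3′-UTR feature below were chosen after levels had been seen, and none of them was used to pick the genes.

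**Figure D1:**
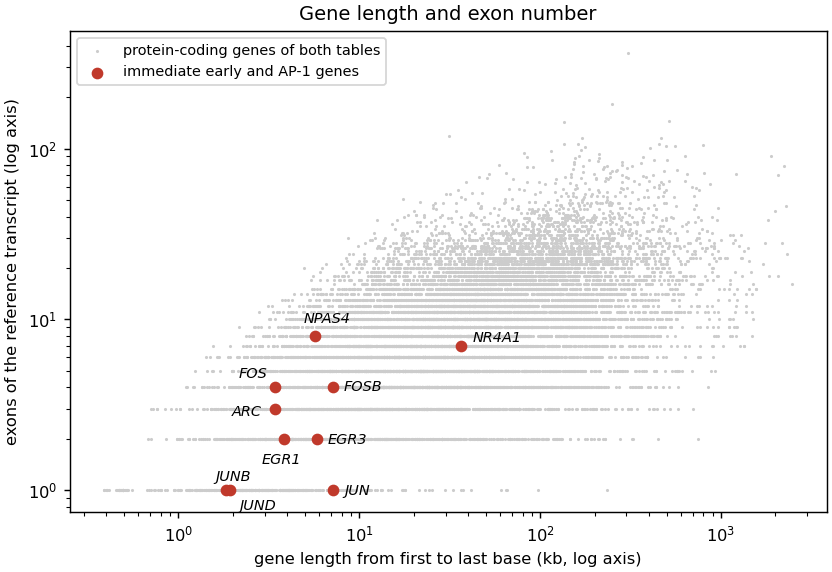
Span of each gene from first to last base (x axis, kb, log scale) against the exon number of its reference transcript (y axis, log scale) for 14115 protein-coding genes listed in both tables (grey) and the immediate early and AP-1 genes (red). All red points but NR4A1 lie under 10 kb, and NPAS4, with 8 exons, is the highest of them.

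The pentamer ATTTA, the core of AU-rich elements that mark many short-lived mRNAs, was found in the annotated 3′-UTR of 8 of the 10 genes, all but ARC and NPAS4. It was also found in 73.3% of the protein-coding genes, so its presence did not set the group apart. Its density was highest in FOS, at 6.20 copies per kb of 3′-UTR, followed by NR4A1 at 5.37 and JUNB at 4.0, against a median of 1.72 over the protein-coding genes. The remaining genes with a copy ranged from 0.818 per kb in EGR1 to 2.34 per kb in JUN. Over the 10 genes the median density was 1.36 per kb, and 6 of them were below the median of the protein-coding genes.

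Promoter windows from 250 bases before to 50 bases after the annotated start were taken from RefSeq on GRCh38.p14 for 8 of the 10 genes. EGR3 and ARC had none in that set. NR4A1 and NPAS4 had 2 each, and a gene was counted if any of its windows held the motif. Short motifs known from this class of genes were searched on both strands, and the windows below are those upstream of the start in which one was found, printed 5′ to 3′ along the gene with the motif in capitals. The TATA box, which positions RNA polymerase, was searched as TATAAA. It was found for 3 of the 8 genes, against 9.56% of 12530 genes with a promoter in the set.
FOS TATA box, chr14:75278785-75278810, plus strand, motif from position -33: aaacgcttgtTATAAAagcagtggct
JUNB TATA box, chr19:12791445-12791470, plus strand, motif from position -31: actagcgcggTATAAAggcgtgtggc
FOSB TATA box, chr19:45467956-45467981, plus strand, motif from position -30: gtcccgggcaTATAAAtacaggctgg
These 3 motifs stand within a few bases of one another relative to the start. All 3 genes were more than 2-fold higher in iMNs, against 6 of the whole set of 10 and 15.2% of all genes listed in both tables. NR4A1 and NPAS4, whose windows held no TATAAA, were also more than 2-fold higher there. A link between motif and level was not tested.

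The serum response element is read by SRF, whose site is the CArG box. Within the searched windows it was found for 1 of the 8 genes, EGR1, which held 2 copies. A CArG box was found for 1.68% of all genes with a promoter in the set. EGR1 also held the only match among the 8 genes to the EGR motif GCGNGGGCG, the type of site its own protein binds. That motif was found for 18.6% of all genes with a promoter.
EGR1 CArG box, chr5:138465364-138465393, plus strand, motif from position -105: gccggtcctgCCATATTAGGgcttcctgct
EGR1 CArG box, chr5:138465386-138465415, plus strand, motif from position -83: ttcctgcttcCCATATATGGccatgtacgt
EGR1 EGR motif, chr5:138465271-138465299, plus strand, motif from position -198: tgggatgcggGCGCGGGCGcgggccctag
The cyclic AMP response element, searched as TGACGTCA, is read by CREB and ATF proteins. It was found for 1 of the 8 genes, JUND, and for 3.38% of all genes with a promoter.
JUND cyclic AMP response element, chr19:18281805-18281832, minus strand, motif from position -200: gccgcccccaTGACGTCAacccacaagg
The AP-1 site TGANTCA and the NR4A site AAAGGTCA were found for 0 of the 8 genes, against 7.46% and 1.21% of all genes with a promoter. A match is a run of letters and not a bound site, and enhancers, through which many of these genes respond, lie outside these windows. Promoter sites further upstream than the windows, and sites whose letters vary from the searched motif, were not counted. A gene without a match may therefore still carry the element in its promoter.

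Levels of the 10 genes ran from percentile 24.8 to 96.1 in iMNs and from 24.8 to 95.0 in i3Ns. Their median percentile was 63.4 among genes listed in iMNs and 48.6 among genes listed in i3Ns, with 5 and 4 of the 10 above the median gene. The highest, JUND, exceeded the lowest by 83.9-fold in mean normalized count in iMNs, where the lowest was FOSB, and by 276-fold in i3Ns, where the lowest was NPAS4. Divided by reference transcript length and given in ppm of the table's sum of such values, the 10 genes together made up 1017 ppm in iMNs and 659 ppm in i3Ns. The median gene stood at 20.5 ppm in iMNs and 14.9 ppm in i3Ns.

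**Figure D2:**
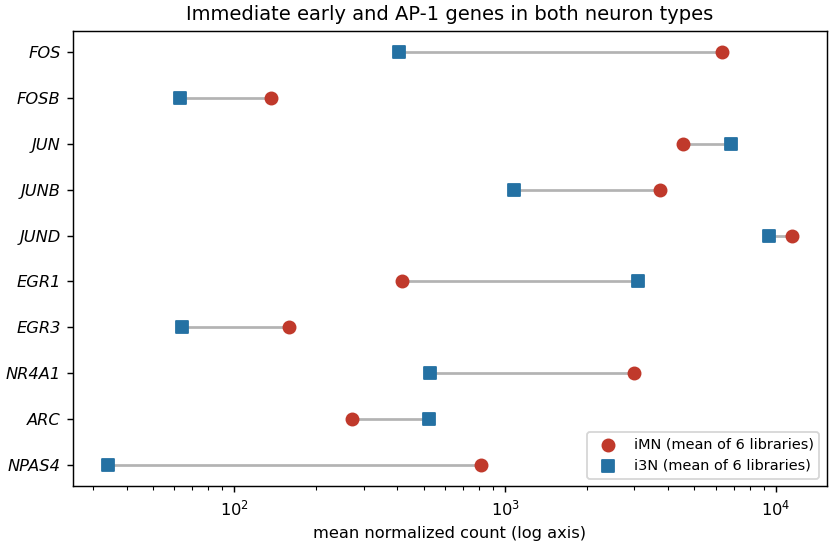
Mean normalized count of each gene over 6 libraries (x axis, log scale) in iMNs (red circles) and i3Ns (blue squares), joined by a grey line. No error bars are drawn, since values of single libraries were not used. NPAS4 and FOS show the widest gaps, with iMNs higher, and EGR1 the widest gap with i3Ns higher.

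Per kb, the order in iMNs from the highest was JUND, FOS, JUNB, JUN, NR4A1, NPAS4, EGR1, ARC, FOSB and EGR3. In i3Ns it was JUND, JUN, EGR1, JUNB, NR4A1, FOS, ARC, FOSB, EGR3 and NPAS4. JUND thus stood first and FOSB and EGR3 near the end in both, while FOS moved from the 2nd place to the 6th and NPAS4 from the 6th to the last. Some neighbours lay close together. In iMNs, FOSB exceeded EGR3 by 1.03-fold per kb and JUN exceeded NR4A1 by 1.15-fold. In i3Ns, NR4A1 exceeded FOS by 1.10-fold and FOS exceeded ARC by 1.09-fold. With no spread at hand, the order within such pairs cannot be told from variation between libraries.

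JUN, JUNB and JUND encode the JUN subunits of AP-1, and JUND is known for a high basal level in many cells. JUND (ENSG00000130522, chr19:18279694-18281622, minus strand) had a mean normalized count of 11495 in iMNs and 9396 in i3Ns, at percentiles 96.1 and 95.0. JUN (ENSG00000177606, chr1:58776845-58784048, minus strand), the founding member, was listed at 4522 in iMNs and 6846 in i3Ns. JUNB (ENSG00000171223, chr19:12791486-12793315, plus strand) was listed at 3718 in iMNs and 1075 in i3Ns. JUND was close between the neuron types, while JUN was somewhat higher in i3Ns and JUNB more than 2-fold higher in iMNs. Per kb, the JUN family summed to 674 ppm in iMNs and 543 ppm in i3Ns. JUND made up 63.5% of that sum in iMNs and 64.4% in i3Ns, so its share was nearly the same, whereas JUNB made up 21.7% and 7.77% and JUN 14.8% and 27.8%. The JUNB transcript overlaps exons of HOOK2 on the opposite strand over 14.2% of its length. Whether the counting used strand is not given in the sources used here, and HOOK2 itself was listed at 623 normalized counts in iMNs and 534 in i3Ns.

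FOS and FOSB encode FOS subunits of AP-1 and are at low levels in most resting cells. FOS (ENSG00000170345, chr14:75278826-75282230, plus strand) had a mean normalized count of 6340 in iMNs, at percentile 90.4, and of 405 in i3Ns, at percentile 45.3. FOSB (ENSG00000125740, chr19:45467995-45475179, plus strand) was low in both, at 137 in iMNs and 63.1 in i3Ns. In mean normalized count both were higher in iMNs, whereas by percentile FOSB stood at 24.8 in iMNs and 29.1 in i3Ns. This percentile direction turned among genes in both tables, where the percentile of FOSB in iMNs minus that in i3Ns was 6.49. Per kb, FOSB made up only 0.990% of the FOS family in iMNs and 4.39% in i3Ns. With their relatives FOSL1 and FOSL2, the FOS family summed to 263 ppm per kb in iMNs and 27.3 ppm in i3Ns, a 9.64-fold difference on this share scale. FOS was 82.2% of this sum in iMNs and 50.6% in i3Ns, and FOSL2, a more slowly induced member, was 15.4% and 40.8%. The summed JUN family exceeded the summed FOS family by 2.56-fold per kb in iMNs and by 19.9-fold in i3Ns. These ratios compare RNA within a table and say nothing of protein.

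**Figure D3:**
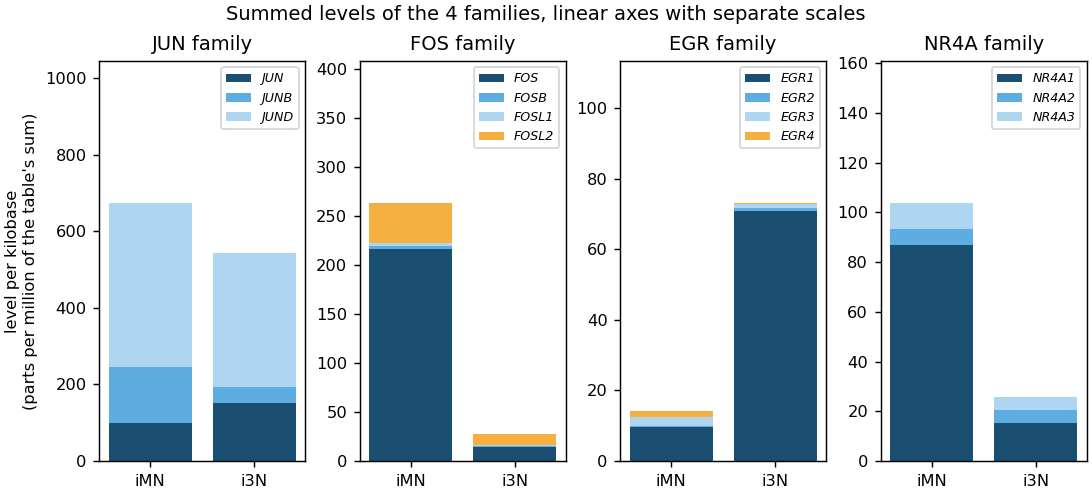
Level per kb of the JUN, FOS, EGR and NR4A families (y axes, ppm of the table's sum, linear and with a separate scale in each panel) in iMNs and i3Ns, stacked by gene. The JUN family sums to 674 ppm in iMNs and 543 ppm in i3Ns, the FOS and NR4A families are higher in iMNs, and the EGR family is higher in i3Ns, where EGR1 makes up 96.8% of it.

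EGR1 and EGR3 encode zinc finger transcription factors that bind GC-rich sites. EGR1 (ENSG00000120738, chr5:138465479-138469303, plus strand) had a mean normalized count of 417 in iMNs, at percentile 37.0, and of 3092 in i3Ns, at percentile 80.5. EGR3 (ENSG00000179388, chromosome 8, minus strand) was listed at 159 in iMNs and 63.9 in i3Ns. In mean normalized count the pair lay in opposite directions between the neuron types. By percentile EGR3 stood at 26.3 in iMNs and 29.2 in i3Ns, but this direction depended on the genes ranked against. Among genes in both tables, the percentile in iMNs minus that in i3Ns was 7.84 for EGR3 and -41.0 for EGR1. EGR1 was the only one of the 10 genes more than 2-fold higher in i3Ns. Per kb, the EGR family summed to 14.1 ppm in iMNs and 73.2 ppm in i3Ns, with EGR1 at 67.8% and 96.8% of it. EGR3 made up 17.9% of the family in iMNs and 1.39% in i3Ns, and EGR4 11.6% and 0.545%. EGR3 overlaps exons of a long noncoding RNA on the opposite strand over 3.63% of its transcript.

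NR4A1 encodes an orphan nuclear receptor, also called NUR77, thought to act without a natural ligand. NR4A1 (ENSG00000123358, chr12:52022832-52059507, plus strand) had a mean normalized count of 3000.2 in iMNs, at percentile 78.1, and of 526 in i3Ns, at percentile 48.6. It was the main NR4A gene in both, with 83.6% of the family's per-kb sum of 104 ppm in iMNs and 59.4% of 25.6 ppm in i3Ns. NR4A2, known for its role in dopamine neurons, was close between the tables, at 6.37 ppm per kb in iMNs and 5.23 ppm in i3Ns, and NR4A3 was at 10.6 and 5.16 ppm. The antisense gene NR4A1AS overlaps 30.3% of the NR4A1 transcript and was not found under that symbol in either table. Whether reads of the pair were told apart is not known.

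NPAS4 and ARC are known for their close ties to neuronal activity. NPAS4 (ENSG00000174576, chr11:66421035-66426707, plus strand), a transcription factor induced by calcium entry, had a mean normalized count of 815 in iMNs, at percentile 48.7, and of 34.0 in i3Ns, at percentile 24.8. ARC (ENSG00000198576, chromosome 8, minus strand) was listed at 272 in iMNs and 521 in i3Ns, at percentiles 31.7 and 48.5. NPAS4 was the lowest of the 10 genes in i3Ns and ARC was above it there, while in iMNs NPAS4 was above ARC, at 17.9 against 6.64 ppm per kb.

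To set levels side by side across the tables, which the authors normalized separately, log2 ratios of i3N over iMN were shifted so that their median was 0 over the 12071 genes listed at 100 normalized counts or more in each table. The shift was 0.0998 on the log2 scale. Cell type, stem cell line, differentiation protocol and sorting differ between the tables at once, and their parts cannot be told apart. Each mean also pools SCR with SMN-KD libraries. A response to SMN-KD that differs between the cell types would enter these ratios and cannot be told apart either. On this scale, 6 of the 10 genes were more than 2-fold higher in iMNs, where 15.2% of the 16093 genes listed in both tables were. In the other direction, 1 of the 10 genes was more than 2-fold higher in i3Ns, where 9.46% of all genes were. The remaining 3 genes, JUN, JUND and ARC, were within 2-fold. The median log2 ratio was -1.32 over the 10 genes and -0.03 over all genes, and the median absolute log2 ratio was 1.65 against 0.482.

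The widest gap was that of NPAS4, with a log2 ratio of -4.68, or 25.7-fold higher in iMNs, and 0.845% of all genes had a lower ratio. FOS followed at -4.07, or 16.8-fold higher in iMNs, with 1.22% of all genes lower. NR4A1 was at -2.61, JUNB at -1.89, EGR3 at -1.41 and FOSB at -1.22. JUND at -0.39 and JUN at 0.50 lay near the centre of all genes, and ARC was at 0.84. EGR1 was at 2.79, or 6.91-fold higher in i3Ns, with 1.52% of all genes higher. The set therefore did not differ as a block. EGR1 lay past 2-fold on the other side from FOS, NR4A1 and NPAS4, and JUN, JUND and ARC were within 2-fold.

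**Figure D4:**
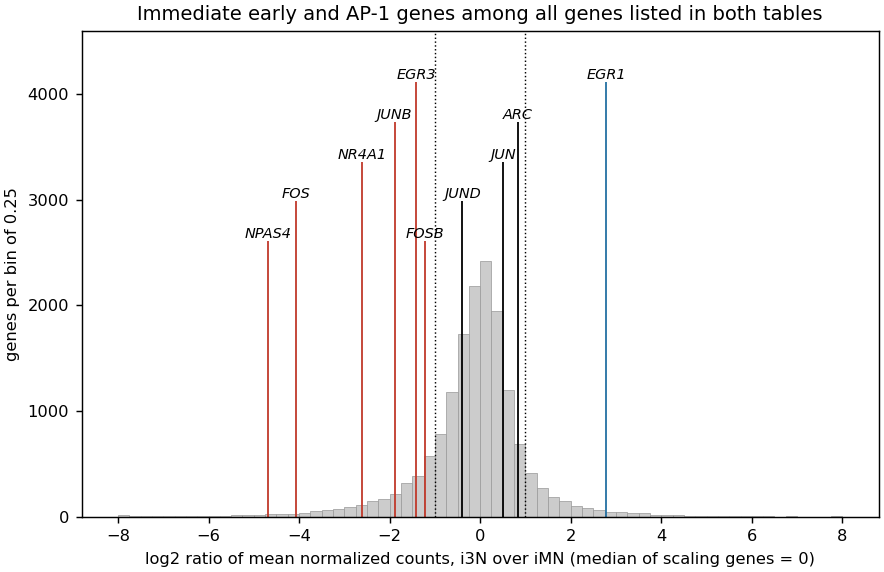
Number of genes (y axis) by log2 ratio of mean normalized counts, i3N over iMN, in bins of 0.25 (x axis), for 16093 genes listed in both tables (grey), with a line at each of the 10 genes, whose heights carry no value. Dotted lines mark a 2-fold difference. Of the 10 genes, 6 lie left of the dotted lines (red), 3 between them (black) and EGR1 to the right (blue).

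Other genes of the pathway were taken from lists by role. Of 12 AP-1 partners and relatives, 11 were listed, BATF not being found in either table. Of the 11, 8 were more than 2-fold higher in iMNs, against 15.2% of all genes. In i3Ns 0 were, against 9.46%, and the median log2 ratio was -1.60. The highest per kb in both was ATF2, a CREB-like factor that pairs with JUN, at 78.0 ppm in iMNs and 110 ppm in i3Ns, and the lowest was BATF2, at 1.10 and 0.162 ppm. FOSL2 was at a mean normalized count of 3798 in iMNs and 1041 in i3Ns, and ATF3, a stress-induced partner, at 1202 and 463. So the relatives lay mostly on the same side as FOS and JUNB, with ATF2, ATF7 and MAFG within 2-fold.

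Of 14 other immediate early transcription factors, 13 were listed, PER1 not being found in either table. Their median percentile was 47.0 in iMNs and 46.7 in i3Ns. More than 2-fold higher in iMNs were 3 of them, against 15.2% of all genes, and likewise 3 in i3Ns, against 9.46%. ATF4, a factor of the integrated stress response, was the highest per kb in both, at 306 ppm in iMNs and 462 ppm in i3Ns. The lowest was EGR2 in iMNs, at 0.378 ppm, and EGR4 in i3Ns, at 0.399 ppm. KLF6, at 4547 and 11420 normalized counts, was on the side of EGR1, and CREM, at 1816 and 457, on the side of FOS.

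All 23 other activity-induced effectors were listed in both tables, with a median percentile of 53.2 in iMNs and 55.7 in i3Ns. Of these, 10 were more than 2-fold higher in iMNs, against 15.2% of all genes, and 4 in i3Ns, against 9.46%. The highest per kb was VGF, a secreted neuropeptide precursor, at 3118 ppm in iMNs and 482 ppm in i3Ns, and the lowest was PTGS2, the inducible cyclooxygenase, at 1.31 and 0.123 ppm. SIK1, a CREB target kinase, was at 1015 normalized counts in iMNs and 133 in i3Ns. In contrast, the ERK phosphatase DUSP6 was at 1600 in iMNs and 12040 in i3Ns, NRN1 at 167 and 1861, and BDNF was close between the tables, at 533 and 610.

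**Figure D5:**
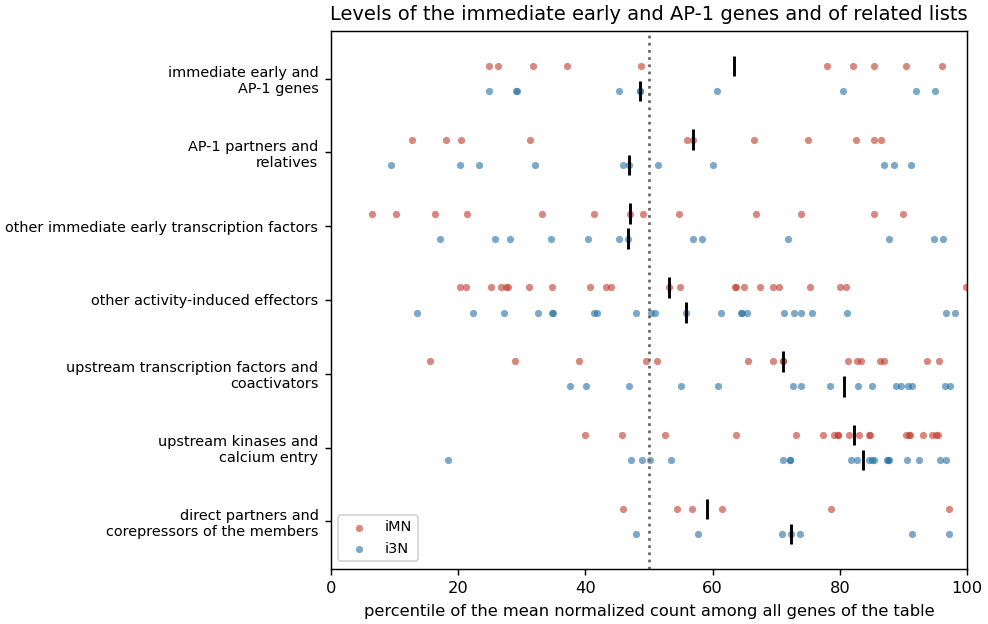
Percentile of the mean normalized count among all genes of the table (x axis) for the immediate early and AP-1 genes and for related lists (rows), with a point for each gene in iMNs (red) and i3Ns (blue) and a black bar at each median. The dotted line marks the median gene. The 10 genes have a median of 63.4 in iMNs and 48.6 in i3Ns, while kinases and calcium entry genes have medians of 82.2 and 83.7.

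Upstream of the 10 genes, all 16 transcription factors and coactivators were listed in both tables. Of these, 14 were within 2-fold, 2 were higher in i3Ns and 0 were higher in iMNs, where 24.6% of all genes were past 2-fold in either direction. SRF was at 2190 normalized counts in iMNs and 1995 in i3Ns, CREB1 at 3585 and 6490, and MRTFA, an actin-regulated SRF cofactor and the highest per kb in iMNs, at 4787 and 5274. EP300, a histone acetyltransferase, was the highest per kb in i3Ns, at 112 ppm, and ELK3 the lowest in both, at 0.780 ppm in iMNs and 3.23 ppm in i3Ns. Of 20 kinases and calcium entry genes, 16 were within 2-fold and 4 were higher in iMNs, against 15.2% of all genes, and the list's median log2 ratio was -0.60. MAP2K2, which activates ERK, was the highest per kb in both, at 263 ppm in iMNs and 199.7 ppm in i3Ns. CAMK2A, a synaptic calcium-dependent kinase, was the lowest, at 7.52 and 0.211 ppm, and was 38.3-fold higher in iMNs on the scaled ratio. That fold rests on a low level in i3Ns, with CAMK2A at 506 normalized counts in iMNs and 14.2 in i3Ns. The other 3 were CACNA1C, an L-type calcium channel, at 10561 and 3570 normalized counts, GRIN1, an NMDA receptor subunit, at 3599 and 717, and RPS6KA5, a kinase of CREB and histone H3, at 3285 and 585.

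Of 7 direct partners and corepressors of the 10 genes' proteins, 6 were listed in both neuron types. ARNT2, with which NPAS4 pairs, was at 13964 normalized counts in iMNs and 13560 in i3Ns, and ARNT at 1182 and 1830. The EGR corepressors NAB1 and NAB2 were at 1067 and 1466 in iMNs and at 1963 and 2124 in i3Ns. Retinoid X receptors, with which NR4A1 can pair, differed by gene, with RXRA at 3107 in iMNs and 503 in i3Ns and RXRG at 707 and 6416. RXRB was found under its main gene identifier only in i3Ns, at 917, and several iMN entries under alternate identifiers would have been missed. The highest per kb of these 7 genes was ARNT2 in iMNs, at 154 ppm, and RXRG in i3Ns, at 234 ppm, and the lowest was NAB1 in iMNs, at 17.0 ppm, and RXRA in i3Ns, at 6.53 ppm.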

How the data were processed

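Total RNA depleted of ribosomal RNA (RiboErase) was sequenced in paired-end reads from 12 libraries in 4 groups of 3, assigned from the sample labels. The authors used fastp for adapter trimming, Salmon for transcript abundance and DESeq2 within each cell type. Versions, transcript annotation, strand setting and filters on low counts are not given in the sources used here, and hg38 is the build the submitters' notes name. The authors deposited 2 tables, whose signal used here is the mean, over 6 libraries, of counts divided by size factors. The other columns hold the authors' log2 fold change of SMN-KD against SCR with its error, p-value and adjusted p-value, and were not used, so that comparison was not analysed here. Depth per library is unknown.

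Levels were ranked within a table with Python 3.11.15, pandas 2.3.3 and NumPy 2.4.6, divided by GENCODE release 44 transcript length (MANE Select, otherwise the longest), and scaled between tables as described. Of the listed genes, 693 in iMNs and 878 in i3Ns had no length. Named genes were looked up by symbol. Where a symbol had several rows, only a row with a GENCODE release 44 identifier counted as listed. Positions are GRCh38. The scaling was tested on simulated data. The genes and lists were chosen with earlier results of these data known. All 10 genes are named, with the highest and lowest gene per kb of each list in each table and genes listed in no table. Others were named after their values were seen. Alternatives changed the genes ranked against, the length and the scaling. A comparison of protein sequences was planned and not run.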

Additional observations from a re-analysis of the deposited data

How the results depend on the processing

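All 10 log2 ratios between i3Ns and iMNs kept their direction and their side of a 2-fold difference with the values as deposited, with each table scaled to its sum, and with scaling on 6960 genes with means of at least 1000, and so did the counts of 6 and 1 genes past 2-fold. Percentiles depended more on the genes ranked against, with 19016 genes listed in i3Ns and 16406 genes in iMNs. The median percentile of the 10 genes in iMNs was 62.4 among genes with a mean of at least 10, 60.0 among protein-coding genes and 65.7 per kb. In i3Ns it was 39.5 among genes in both tables, 39.0 among genes with a mean of at least 10, 41.2 among protein-coding genes and 49.6 per kb. The percentile in iMNs minus that in i3Ns turned sign for FOSB, from -4.25 to 6.49, and for EGR3, from -2.90 to 7.84, among genes in both tables, and for EGR3 to 0.389 among protein-coding genes. Per kb, coding length moved 6 of 20 places and the longest transcript 3, by at most 2 places. No paired analysis was possible because the column used gives 1 mean over 6 libraries and the columns of the authors' comparison were not used, and for the same reason no library could be left out. Depth limits the lowest genes most, but its size is unknown.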
